A study of Homo sapiens with 10 samples.

Results

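RAP2A is a small GTPase of the Rap family, and its transcript is described here together with those of 9 genes of the same pathway, RAP2B, RAP2C, RAP1A, RAP1B, RAP1GAP, RASGRP2, RAPGEF1, RAPGEF2 and SIPA1. These 10 genes were chosen by name, and a probe was taken as a member when its accession carried one of these symbols in RefSeq, which gave 17 of the 42405 probes on the array. The cells were MEG-01, a leukemia line with megakaryoblast features that serves as a model of platelet precursors. They were nucleofected with a precursor of miR-1225-3p at 200 nM (5 arrays) or with a scrambled precursor of random sequence at the same dose (5 arrays), and RNA was taken after 24 hours. The comparison asks which messenger RNAs move when this microRNA, which the study had found raised in platelets of patients with sickle cell disease, is raised in such cells. Both groups were cultures of the same line with no other manipulation named in the labels, and replicates are labelled as biological and come from experiments run in parallel, so the spread between them is that of parallel transfections. One label field gives the scrambled cells as having no treatment, but their titles name the scrambled transfection and were followed. The study picked RAP2A for follow-up from its fall on these same arrays, so its direction here is not independent evidence. It reported RAP2A as lower with miR-1225-3p by quantitative RT-PCR too, and that measurement was not re-examined here.

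Rap proteins are molecular switches that are active when they hold GTP. Guanine nucleotide exchange factors load them with GTP, and GTPase-activating proteins return them to the inactive state. In platelets and megakaryocytes Rap1 is best known for switching on the integrin that binds fibrinogen, and RASGRP2, also called CalDAG-GEFI, is its calcium-dependent exchange factor there, while Rap2 proteins signal through a separate set of kinases.

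The transfected microRNA is shown because each comparison rests on it, with its seed (bases 2 to 8 from the 5′ end) in capitals and the other arm of the same hairpin below it. Both were taken from RefSeq.
hsa-miR-1225-3p: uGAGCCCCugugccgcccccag
hsa-miR-1225-5p: gUGGGUACggcccagugggggg
The 3p arm lies at chr16:2090195-2090216 on the minus strand of GRCh38.p14, within the span of PKD1. The letters opposite its seed read GGGGCUC, and the seed of the 5p arm is different. Of 2370 mature human microRNA names in the table, 1 had this seed, miR-1225-3p itself. Whether the Rap transcripts hold the matching letters was not tested, since no transcript sequence was used here.

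Signals were well above background at 42.0% to 61.2% of spots on the 10 arrays, no spot was saturated, and no spot of a member was flagged as an outlier. On the first principal component, with 69.8% of the variance, miR-1225-3p replicates 1 to 4 lay between -147 and -57.2 and the scrambled arrays between 57.1 and 82.9, while miR-1225-3p replicate 5 lay at 63.8, with the scrambled arrays. Replicate 5 was kept under its label, and whether these cells carried the transfected microRNA was not tested here, so each 10-array value averages 4 arrays that stand apart from the scrambled ones and 1 that does not. The main results are therefore given with and without it. Replicate 5 was set apart because its own signals lay with the scrambled arrays, so leaving it out favours a larger difference. Values and p-values without it are a description and not added evidence. The arrays were on 2 slides, the first with miR-1225-3p replicates 1 and 2 and scrambled replicates 1, 3 and 5. Of 13 megakaryocyte markers with a probe, 8 were well above background on every array, PF4 on none, and VWF on 1 array. At an adjusted p of 0.05 ITGA2B, GATA2, NFE2 and FLI1 were lower in miR-1225-3p cells and no marker of this list was higher, and the summed log2 signal of the 13 was 87.0 to 94.1 with miR-1225-3p and 95.8 to 101 with scrambled precursor. Among markers of other blood cells, CD3E and FCGR3A passed this threshold as higher and none passed as lower, with CD79A at a log2 fold change of -1.47 (limma adjusted p = 0.0625). The T cell sums (4 genes) were 21.6 to 24.3 with miR-1225-3p against 20.1 to 23.9, the B cell sums (4 genes) 19.1 to 22.8 against 20.5 to 23.8, and the monocyte sums (3 genes) 17.2 to 21.5 against 17.0 to 18.8, while CD2 and MS4A1 were above background on no array. The part of these markers in the Rap values was not tested.

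RAP2A and RAP2C were lower in miR-1225-3p cells, as was SIPA1, which switches Rap proteins off, whereas RAP1A, RAP1B and RAP1GAP were higher. The other Rap2 gene, RAP2B, and the 3 exchange factors had no probe past the threshold in the main limma fit. Testing required a signal clearly over background in 3 or more of the 5 cultures of a group, and 15 of the 17 member probes met this, with at least 1 probe for each of the 10 genes. By limma 7 of the 15 passed an adjusted p of 0.05 (46.7%), 3 lower and 4 higher, against 35.0% of the 20648 probes tested on the array (18.7% lower and 16.3% higher). Their median log2 fold change was -0.04, and that of all probes tested was -0.09. The median of all probes moved to 0.11 when the 75th percentile was subtracted from each array in place of cyclic loess normalization, and to -0.31 with no normalization. The 5 arrays of one group all lay beyond the 5 of the other for 2 of the 15, SIPA1 and RAP1GAP, against 12.6% of all probes (4.82% with miR-1225-3p lower and 7.78% with it higher). Without replicate 5, 10 member probes passed, 5 lower and 5 higher, against 55.8% of all probes (30.5% lower and 25.3% higher). When each of the other arrays was left out in turn, between 4 and 5 member probes passed, with 4 for miR-1225-3p replicates 2 and 3 and scrambled replicates 1, 2, 3 and 4, and 11.0% to 26.4% of all probes passed in these fits. On slide 1 alone 4 member probes passed, against 26.9% of all probes. Since cells were measured in bulk, a lower signal in each cell and a smaller number of cells with the transcript cannot be told apart.

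RAP2A, which recruits kinases of the germinal center family to the membrane, had the largest fall of the member probes. Its normalized log2 signal in miR-1225-3p replicates 1 to 5 was 2.49, 2.56, 3.33, 2.75 and 8.57, and in scrambled replicates 1 to 5 it was 8.92, 9.19, 8.72, 8.85 and 8.07. Replicates 1 to 4 lay far below each scrambled array, while replicate 5 lay above the lowest scrambled array, so the groups overlapped at 1 array. The mean was 3.94 ± 2.61 (SD, n = 5) with miR-1225-3p and 8.75 ± 0.418 (SD, n = 5) with scrambled precursor, a log2 fold change of -4.81 (limma adjusted p = 0.0154, standard error 1.05). By a two-sided exact permutation test of the array labels p was 0.0159, where 0.00794 is the smallest that 5 against 5 arrays allow. Without replicate 5 the log2 fold change was -5.96 with a standard error of 0.252 (limma adjusted p = 2.1e-06).

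The low RAP2A values were at the floor of the measurement. The 2 RAP2A spots on each array had a median signal of 63.5, 60, 56.8 and 61 on miR-1225-3p replicates 1 to 4, where the local background was 64.2, 69.2, 61 and 70.5. On replicate 5 the same spots read 577.5 over a background of 64.5, and on the scrambled arrays they read 343.5 to 779 over backgrounds of 60 to 74. RAP2A was thus measured above background in 1 of 5 miR-1225-3p and in 5 of 5 scrambled cultures. For a reference, each of replicates 1 to 4 was given the lowest signal of any probe called above background on it, or its own signal where higher. This reference had a mean of 3.34, where the measured mean was 2.78, and the scrambled mean of 8.75 was 42.3-fold above it. It is not a detection limit, since RAP2C probe A_23_P147826 read 5.15 on replicate 3 and was not called above background. The fold is therefore not a lower limit. On the 6 arrays where the probe was measured its 2 spots differed by at most 0.0616 on the log2 scale. With normexp on the median signal and an offset of 50, which changes the signal, the correction and the offset together, the log2 fold change was -1.999.

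**Figure D1:**
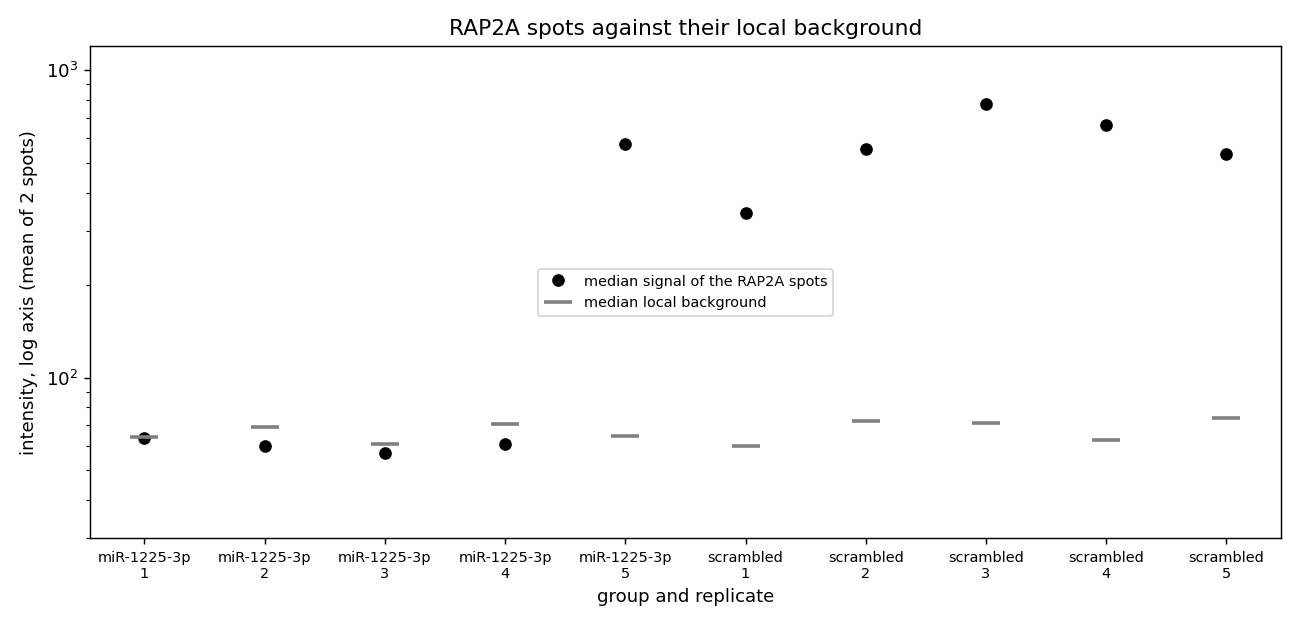
Median signal of the RAP2A spots (points) and their local background (grey bars), as intensity on a log axis, for each array along the horizontal axis (mean of 2 spots). The points meet or lie under the background on miR-1225-3p replicates 1 to 4 (56.8 to 63.5) and lie well over it on replicate 5 (577.5) and on the 5 scrambled arrays (343.5 to 779).

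The mean RAP2A signal was lower with miR-1225-3p on each slide, but the difference passed the threshold on slide 1 only. On slide 1, which held 2 miR-1225-3p and 3 scrambled arrays, the log2 fold change of RAP2A was -6.04 (limma adjusted p = 0.00451). On slide 2, where replicate 5 lay, it was -4.13 (limma adjusted p = 0.501). Within slide 2 limma called 0 of the 20648 probes, and 1 member probe, that of RAP1GAP, had an unadjusted p under 0.05.

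RAP2C, a further Rap2 GTPase, had a lower mean with miR-1225-3p on each of its 2 probes, of which 1 passed the threshold. Probe A_23_P147826 read 5.80, 5.80, 5.15, 5.59 and 7.16 in miR-1225-3p replicates 1 to 5 and 7.64, 7.43, 7.25, 7.33 and 7.14 in scrambled replicates 1 to 5. Here too replicates 1 to 4 were below each scrambled array and replicate 5 lay among them. The log2 fold change was -1.46 (limma adjusted p = 0.0158, standard error 0.322), -1.77 without replicate 5 (adjusted p = 7.8e-05), and -0.70 with normexp on the median signal (adjusted p = 0.0149). Probe A_24_P374319 of the same gene read 7.24, 6.18, 4.90, 4.72 and 6.93 with miR-1225-3p and 6.66 to 7.26 with scrambled precursor. Its log2 fold change of -1.06 did not pass (limma adjusted p = 0.100, standard error 0.475), and replicate 1 read as high as the scrambled arrays. It passed without replicate 5, at -1.29 (adjusted p = 0.0424), and without replicate 1, at -1.37 (adjusted p = 0.0482).

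RAP2B, the third Rap2 gene, had 1 probe that was well above background on all 10 arrays. It read 6.31 to 7.44 with miR-1225-3p and 6.29 to 6.87 with scrambled precursor, and the groups overlapped widely. Its log2 fold change was 0.20, with a 95% confidence interval of -0.31 to 0.71 (limma adjusted p = 0.499). Of the 4 probes of the 3 Rap2 genes, 2 passed as lower and none as higher, against 18.7% and 16.3% of all probes tested. The log2 fold changes of the 4 had a median of -1.26. So few probes cannot show whether the Rap2 genes differ from the array as a whole, and RAP2C was not tested against RAP2B.

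The fall of RAP2A was set against that of each Rap relative within the same arrays, with the brightest probe of each gene. The difference between the log2 fold changes was -5.004 ± 1.31 (standard error) against RAP2B, -3.35 ± 0.894 against RAP2C, -5.36 ± 1.30 against RAP1A and -5.19 ± 1.26 against RAP1B. By the two-sided exact permutation test, adjusted over these 4 pairs, each had p = 0.0317. Without replicate 5 the differences were -6.27, -4.19, -6.61 and -6.41, each with p = 0.00794 by the exact test after adjustment. The sizes rest on RAP2A values at the floor, and with normexp on the median signal the differences were -2.13, -1.30, -2.57 and -2.31, each again with p = 0.0317 by the exact test. RAP2A had been picked by the study for its fall on these arrays, so these tests are not independent evidence.

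The Rap1 GTPases moved the other way. RAP1A, which with RAP1B drives integrin activation and cell adhesion, read 14.12, 14.04, 13.80, 13.73 and 13.46 in miR-1225-3p replicates 1 to 5 and 13.14, 13.07, 13.45, 13.20 and 13.53 in scrambled replicates 1 to 5. Replicates 1 to 4 were above each scrambled array and replicate 5 was not. The log2 fold change was 0.55 (limma adjusted p = 0.0299, standard error 0.164), or 1.47-fold, and it was 0.65 without replicate 5 (adjusted p = 0.00445).

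RAP1B, the main Rap1 form of platelets, rose by a like amount on both probes. Probe A_23_P2661 read 12.61 to 13.18 with miR-1225-3p and 12.32 to 12.64 with scrambled precursor, a log2 fold change of 0.39 (limma adjusted p = 0.0495, standard error 0.136). Probe A_33_P3211604 read 12.31 to 12.95 against 12.12 to 12.33, a log2 fold change of 0.42 (limma adjusted p = 0.0481, standard error 0.147). Without replicate 5 these were 0.45 (adjusted p = 0.0105) and 0.49 (adjusted p = 0.00995). The 3 Rap1 probes were all higher, but by less than 1.5-fold and close to the threshold. Their size moved with the scaling, and with the 75th percentile subtracted, where the median of all probes was 0.11, the log2 fold changes were 1.15 for RAP1A and 0.94 and 0.96 for RAP1B (limma adjusted p = 0.0128, 0.0133 and 0.0130). With the authors' values they were 0.47, 0.28 and 0.32, and none passed (limma adjusted p = 0.0532, 0.101 and 0.114). None passed without normalization either (limma adjusted p = 0.280, 0.444 and 0.415). RAP1A lost its call on leaving out any of miR-1225-3p replicates 1 to 3 and scrambled replicates 1 to 4 (highest adjusted p = 0.0769), and neither RAP1B probe passed without any of the 9 arrays other than miR-1225-3p replicate 5 (highest adjusted p = 0.103 and 0.107). RAP1A and RAP1B are close in sequence, and cross-hybridization between their probes was not tested.

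None of the 6 tested probes for the exchange factors passed the threshold in the main limma fit, against 35.0% of all probes. On the same values, RASGRP2 probe A_33_P3209960 passed by the methods' t-test (adjusted p = 0.0336), where 26.5% of all probes passed. With array weights the probes that passed included RASGRP2 A_23_P64058 and RAPGEF1 A_23_P304237 (limma adjusted p = 0.000491 and 0.000217), where 67.8% of all probes passed. RASGRP2 had 3 probes, all well above background on all 10 arrays. Probe A_23_P64058 read 10.97, 11.26, 11.28, 11.73 and 10.55 in miR-1225-3p replicates 1 to 5 and 10.52 to 10.77 with scrambled precursor, a log2 fold change of 0.51 (limma adjusted p = 0.0725, standard error 0.203). Replicate 5 was again with the scrambled arrays, and without it the value was 0.66 (adjusted p = 0.00602). The other two probes had log2 fold changes of 0.23 (adjusted p = 0.125) and -0.16 (adjusted p = 0.364), so the probes of RASGRP2 did not give 1 direction. With the 75th percentile subtracted all were above 0, at 0.97 (adjusted p = 0.0299), 0.74 (adjusted p = 0.0180) and 0.24 (adjusted p = 0.224).

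RAPGEF1 is an exchange factor brought to the membrane by Crk adaptors. Its probe A_23_P304237 read 5.41, 4.19, 3.49, 2.94 and 6.82 in miR-1225-3p replicates 1 to 5 and 5.82, 5.93, 6.81, 6.23 and 6.94 in scrambled replicates 1 to 5. Replicates 1 to 4 lay below each scrambled array, and the probe stood above background in 2 of these 5 miR-1225-3p cultures. The log2 fold change was -1.78 (limma adjusted p = 0.0562, standard error 0.654), -2.34 without replicate 5 (adjusted p = 0.00273), and -0.47 with normexp on the median signal (adjusted p = 0.147). A further RAPGEF1 probe, A_23_P391764, was above background on no array and was not tested. RAPGEF2, an exchange factor for Rap1 and Rap2, had log2 fold changes of -0.04 (95% confidence interval -0.39 to 0.32) on probe A_23_P133095 and -0.14 (-0.60 to 0.31) on probe A_33_P3334743, with adjusted p = 0.852 and 0.584.

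The groups did not overlap for 2 of the 15 tested member probes, near the 12.6% of all probes tested. Both were probes for GTPase-activating proteins, 1 in each direction. RAP1GAP, which turns off Rap1, read 8.23, 9.38, 11.11, 10.63 and 6.91 in miR-1225-3p replicates 1 to 5 and 6.02, 6.25, 6.06, 6.02 and 6.43 in scrambled replicates 1 to 5 on probe A_24_P36890. Each miR-1225-3p array was above each scrambled array, replicate 5 by the smallest margin. The log2 fold change was 3.097 (limma adjusted p = 0.0159, standard error 0.691), or 8.56-fold, with p = 0.00794 by the two-sided exact permutation test, the smallest it can give. Without replicate 5 it was 3.68 (adjusted p = 0.000385), and the rise was the largest of the member probes. The other RAP1GAP probe, A_23_P45976, did not follow. It stood above background in 0 of 5 miR-1225-3p and in 1 of 5 scrambled cultures, with mean log2 signals of 3.36 and 4.19, and was not tested.

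SIPA1, also called SPA-1, is a GTPase-activating protein for both Rap1 and Rap2 in blood cells. It read 7.94, 7.77, 7.35, 7.56 and 8.42 in miR-1225-3p replicates 1 to 5 and 8.74, 8.58, 8.65, 8.47 and 8.86 in scrambled replicates 1 to 5. Each miR-1225-3p array lay below each scrambled array, with replicate 5 just under the lowest of them. The log2 fold change was -0.85 (limma adjusted p = 0.0169, standard error 0.198), or 1.80-fold lower, with p = 0.00794 by the two-sided exact permutation test. Without replicate 5 it was -1.004 (adjusted p = 0.000525).

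**Figure D2:**
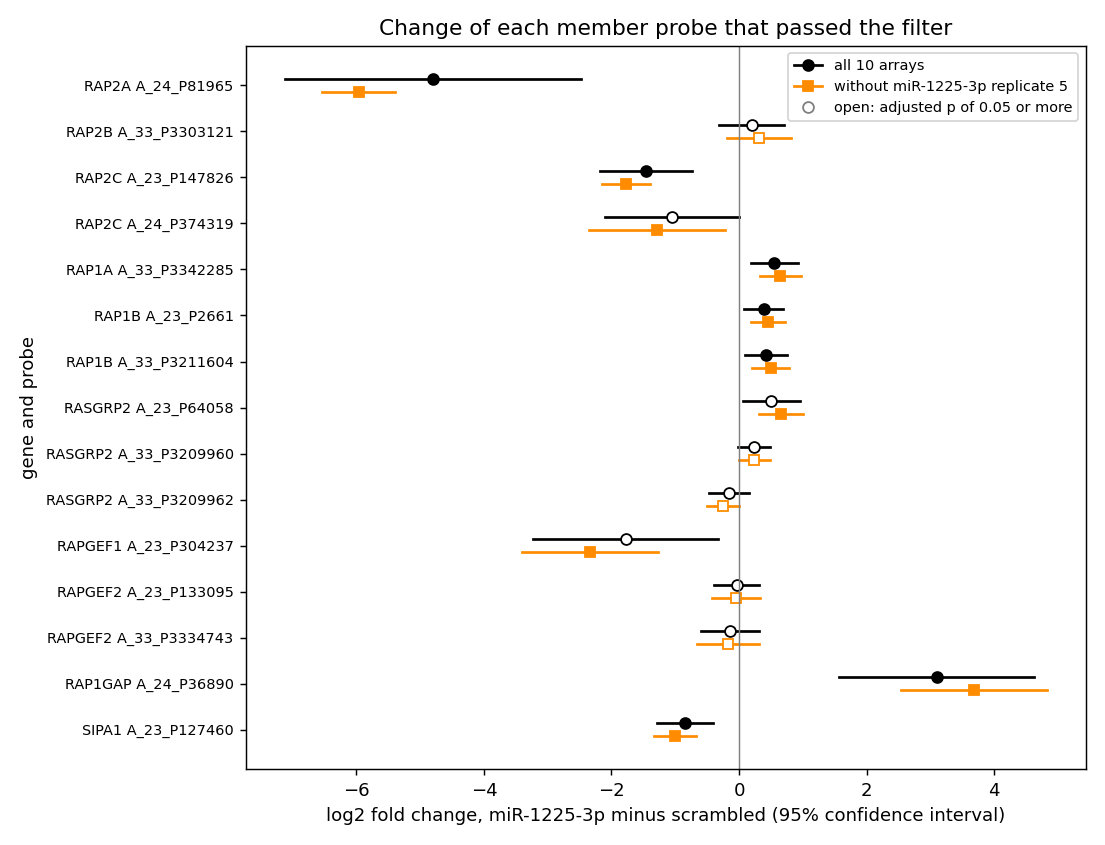
Log2 fold change, miR-1225-3p minus scrambled (horizontal axis), with its 95% confidence interval for each of the 15 member probes that were tested (vertical axis), from all 10 arrays (black) and without miR-1225-3p replicate 5 (orange), open where the adjusted p was 0.05 or more. RAP2A stands at -4.81 and RAP1GAP at 3.097 with all arrays, and at -5.96 and 3.68 without replicate 5.

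Of 38 further genes of Rap signalling, 37 had a probe, and 28 of their 48 probes, for 22 genes, were tested. Of these 28, 9 passed the threshold (32.1%), 4 lower and 5 higher, against 35.0% of all probes, and the median of the 28 log2 fold changes was -0.03. The share was thus near that of the array as a whole. Probes for RAPGEF4, RAPGEF5, RAPGEFL1, SIPA1L2, SIPA1L3, KRIT1 and ARHGAP29 were above background on no array. Without replicate 5, 13 passed, 7 lower and 6 higher, against 55.8% of all probes, and the count was between 2 and 5 when any of the other 9 arrays was left out, with 2 for miR-1225-3p replicates 2, 3 and 4 and scrambled replicate 3, where 11.0% to 26.4% of all probes passed in these 9 fits.

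The regulators of this further list that passed were higher in miR-1225-3p cells. Among the member regulators that passed, RAP1GAP was higher as well and SIPA1 was lower. RASA3, a GTPase-activating protein that restrains Rap1 in platelets, read 10.76 to 11.57 with miR-1225-3p and 10.24 to 10.59 with scrambled precursor, with no overlap, and had a log2 fold change of 0.84 (limma adjusted p = 0.0146). The exchange factors RASGRP3 and RASGRP1, which respond to diacylglycerol, had log2 fold changes of 1.01 (adjusted p = 0.0169) and 1.21 (adjusted p = 0.0309), each well above background on 5 miR-1225-3p arrays and on 3 scrambled arrays. RAP1GDS1, a chaperone of prenylated small GTPases, rose by 0.89 on probe A_32_P85813 (adjusted p = 0.0232), while its other probe was at 0.09 (adjusted p = 0.657).

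Of 11 probes for Rap1 effectors and integrin genes, 3 passed as lower and 1 as higher (36.4%), near the 35.0% of all probes. FERMT3, which codes for kindlin-3, the integrin activator of blood cells, read 5.55 to 9.48 with miR-1225-3p and 8.96 to 9.74 with scrambled precursor, a log2 fold change of -2.08 (limma adjusted p = 0.0285, standard error 0.606) that was -2.64 without replicate 5. ITGA2B, the alpha subunit of the platelet fibrinogen receptor which is also among the megakaryocyte markers, was lower by 1.39 on the log2 scale (adjusted p = 0.0439), and its partner ITGB3 did not pass at -0.46 (adjusted p = 0.0573). A probe of RASSF5, a Rap1-binding adaptor, was at -0.97 (adjusted p = 0.0427) but above background on only 1 of 5 and 3 of 5 arrays, while its brighter probe, measured on all 10 arrays, was at -0.15 (adjusted p = 0.438). RALGDS, which passes the signal on to Ral, was at 0.59 (adjusted p = 0.0337). Of 3 probes for the kinases that Rap2 engages, 1 passed (33.3%), near the 35.0% of all probes. It was a dim probe of TNIK at -1.61 (adjusted p = 0.0292), above background on 1 of 5 miR-1225-3p and 3 of 5 scrambled arrays. The brighter TNIK probe was at 0.60 (adjusted p = 0.0691), in the opposite direction, and without replicate 5 it passed at 0.81 (adjusted p = 0.00271) while the dim probe was at -2.05 (adjusted p = 0.000485).

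**Figure D3:**
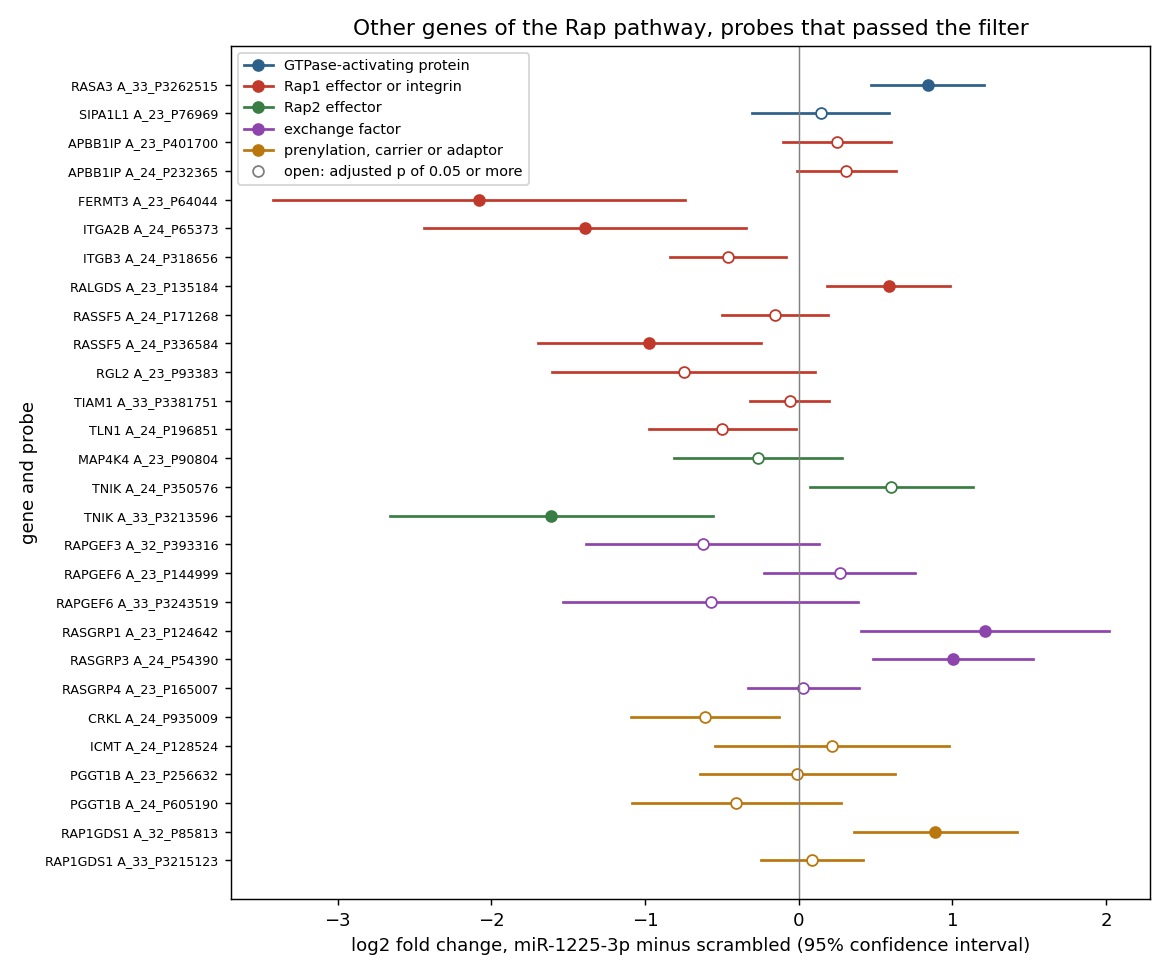
Log2 fold change, miR-1225-3p minus scrambled (horizontal axis), with its 95% confidence interval for 28 probes of other Rap pathway genes (vertical axis), coloured by role, open where the adjusted p was 0.05 or more. FERMT3 stands lowest at -2.08 and RASGRP1 highest at 1.21, and 9 of the 28 probes are filled.

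The genes whose centred signals over the 10 arrays lay nearest to those of RAP2A were outside the Rap family. The measure was not scaled for the size of a change. A Rap probe with a like order of arrays but a smaller change, such as RAP2C probe A_23_P147826, therefore counted as far. After each probe was centred on its own mean, the root mean square difference from RAP2A was 0.178 for STT3A, the catalytic subunit of an oligosaccharyltransferase, 0.264 for PDIA4, a protein disulfide isomerase of the endoplasmic reticulum, 0.393 for a probe of the metallothionein MT1X, 0.454 for the zinc finger gene ZNF497 and 0.456 for the pseudokinase TRIB2. The median of this difference over all probes was 2.89, and the nearest other Rap member was at 1.96. These genes had log2 fold changes between -5.34 and -4.11, and STT3A, PDIA4 and TRIB2 were, like RAP2A, well above background on 1 miR-1225-3p array and on all 5 scrambled arrays. They were chosen for this likeness, so their values are a description.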

How the data were processed

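Total RNA of 10 cultures was measured on single-channel Agilent arrays. The authors deposited scanner output made with Agilent Feature Extraction 10.7.3.1 (per the submitters' processing notes, while the methods text gives another version), whose processed signal is a background-subtracted intensity, and also a table of normalized log2 values, used only as an alternative. The log2 processed signals were normalized here with the cyclic loess that the methods name (3 iterations; limma 3.58.1, R 4.3.3). Control spots (4259 per array) were left out, spots flagged as outliers were treated as missing, and the spots for each probe were averaged. A probe counted as above background on an array when no fewer of its spots did than did not. Accessions of 24910 probes matched a symbol in the RefSeq table of GRCh38.p14, and no gene coordinates are given, since the build of the array design differs. Groups were compared over 20648 probes with lmFit and eBayes and Benjamini-Hochberg adjustment. Single values were compared with exact permutation tests. On data simulated for this comparison over 20648 probes, 78.5% of 200 probes changed by 2 on the log2 scale were recovered, with 11 false calls. The simulated noise was independent between probes and few probes were changed, whereas 35.0% of probes were called in the real comparison. These rates need not hold for the real arrays.

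The text names each probe of the members, the 6 genes of the further list with the smallest adjusted p, and the 5 genes nearest to RAP2A. RALGDS, ITGA2B, ITGB3 and RASSF5 were named after their values were seen. The members and lists were chosen with earlier results of these data known. Alternatives covered the normalization, background correction, filter, probe summary, test, slide, replicate block and each array left out. Normexp was run on the median signal with an offset of 50. Some single marker genes are not reported here. The number of arrays limits the precision.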

Additional observations from a re-analysis of the deposited data

Results flagged for a closer look

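Of 30 groups of 5 values examined, 1 held a value far from the others, where about 1.5 would by chance. It was RAP2A in miR-1225-3p replicate 5, at a normalized log2 signal of 8.57, whereas the nearest of the other 4 miR-1225-3p arrays was at 3.33, a gap of 0.861 of the group's range. The same array lay with the scrambled arrays on the first principal component over all probes, at 63.8.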

How the results depend on the processing

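The log2 fold change of RAP2A kept its direction in all 26 alternatives and its call in 24, with -4.13 (adjusted p = 0.501 from limma) within slide 2 and -4.81 (adjusted p = 0.0503) with the replicate number as a block, and -5.96 to -4.44 when single arrays were left out. The 4 differences between RAP2A and its relatives kept their call in all 14 alternatives run, of which normexp was added after seeing the data. RAP1GAP kept its call in 25 of 27, SIPA1 in 24 of 27 and RAP2C probe A_23_P147826 in 23 of 26, against 14 of 27 for RAP1A and 12 of 27 and 9 of 25 for the RAP1B probes. The count of member probes called, 7, was 2 without normalization, 4 with the authors' values, 4 without a filter, 11 with array weights, 4 within slide 1, 0 within slide 2 (limma, 1 at an unadjusted p under 0.05), and 0 with the replicate block (limma, 6 unadjusted), and 4 to 10 when single arrays were left out. The count for the further list, 9, was 0 without normalization (limma, 4 unadjusted), 4 without a filter, 4 by the methods' t-test on the same values, 15 with array weights, 0 within slide 2 (limma, 0 unadjusted), 0 with the replicate block (limma, 13 unadjusted), and 2 to 13 when single arrays were left out. The share of all probes called, 35.0% in the main fit, moved over these settings too. It was 5.93% without normalization, 16% with the authors' values, 9.47% without a filter and 67.8% with array weights. By the methods' t-test it was 26.5%, within slide 1 26.9%, and 0% within slide 2 and with the replicate block (limma). When single arrays were left out it was 11.0% to 55.8%. With the 75th percentile subtracted, 10 member probes passed, 4 lower and 6 higher, and over all probes 3262 were lower and 5132 higher. Probes near 0 changed sign: RAP2B was at -0.19 without normalization and -0.048 within slide 2, RAPGEF2 probe A_23_P133095 at 0.35 with the 75th percentile, 0.092 with quantile normalization, 0.0041 with slide as a block, 0.19 within slide 1 and -0.16 to 0.034 when single arrays were left out, and RASGRP2 probe A_33_P3209962 at 0.24 with the 75th percentile. The cause was not tested. Same-numbered arrays did not deviate together (correlations of -0.401 to 0.0586). With so few arrays, these correlations cannot settle whether the numbers pair the samples. Dim probes such as RAP2A with miR-1225-3p limit the size of a fold.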
